A study of Mus musculus with 2 samples.

Results

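The 5S ribosomal RNA genes of the mouse were followed as fragments in small RNA libraries. The members were all 354 genes of type rRNA on nuclear chromosomes of the GENCODE M21 annotation, out of 55450 annotated genes, and they were chosen by gene type and not by any measured value. Of these, 351 aligned better with 5S rRNA than with 5.8S rRNA, 2 were 5.8S genes (n-R5-8s1 and Gm24601) and 1 (CT010467.1) resembled neither. This rule set no least score for 5S, so it also took in short and distant copies. Gm25659, for example, is 37 nt long and has 25.2% of the bases of the most frequent 5S sequence. The 351 genes are called 5S genes below, and the other 3 were counted apart.

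Small RNAs were sequenced from total RNA of the line J1, established embryonic stem cells of mouse strain 129S4/SvJae, adapted to gelatin and grown in medium with 1000 U/mL LIF. SC1, also called pluripotin and known to promote self-renewal, was given to one group at 1 µM for 6 h, and the control group received an equal volume of DMSO for 6 h. With 1 library in each group there is no replicate error, and no test between groups was made. The study was set up to find miRNAs regulated by SC1.

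5S rRNA is the smallest RNA of the large ribosomal subunit. It is made by RNA polymerase III from its own tandem genes, apart from the other ribosomal RNAs, which come from RNA polymerase I. Transcription factor IIIA binds inside the gene, the finished RNA is carried by the ribosomal proteins Rpl5 and Rpl11, and its 5′ and 3′ ends pair with each other in a helix. Genomes also hold many diverged 5S copies scattered outside the array.

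The lists hold different RNA lengths, and this limits every statement below. The DMSO list held 18870345 reads of 18 to 44 nt, of which 18862866 were 18 to 31 nt and were matched. The SC1 list held 1275599 reads of 3 to 17 nt, of which 1054495 were 15 to 17 nt and were matched. No tag length occurred in both, so a difference between the lists cannot be told apart from a difference in length, and nothing below is an effect of SC1. Hairpins of the miR-290 to miR-295 cluster, which mark mouse embryonic stem cells, matched 3.14% of the DMSO reads and 2.54% of the SC1 reads (8 of 9 listed hairpins were in the annotation). Fibroblast miRNA hairpins matched 0.0209% and 0.00389%.

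The most frequent sequence among the 5S genes, called the common 5S sequence, was 119 nt long and was carried by 32 genes, all on chromosome 8. Every position below is counted on it, from 1 at its 5′ end. The leading fragments came from positions 34 to 53, 71 to 93 and 98 to 119.

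The leading tags of each list are given next, because they have the most reads in their list and share a few start and end positions. Capitals are not used in them, as each is part of the common sequence without a change.
DMSO, positions 71 to 93, 3341 reads: gttagtacttggatgggagaccg
DMSO, positions 72 to 93, 2976 reads: ttagtacttggatgggagaccg
DMSO, positions 98 to 116, 1721 reads: ggaataccgggtgctgtag
DMSO, positions 34 to 53, 1707 reads: ctcgtctgatctcggaagct
DMSO, positions 98 to 119, 1154 reads: ggaataccgggtgctgtaggct
SC1, positions 98 to 112, 9605 reads: ggaataccgggtgct
SC1, positions 34 to 50, 1051 reads: ctcgtctgatctcggaa
SC1, positions 34 to 49, 591 reads: ctcgtctgatctcgga

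Fragments of 5S rRNA were found in both lists and almost wholly in sense. Among the DMSO tags, 821 with 29783 reads matched a 5S gene, 0.158% of the matched reads (exact 95% binomial interval 0.156 to 0.160). Among the SC1 tags, 172 with 13356 reads matched, 1.27% (interval 1.25 to 1.29), or 0.359% without the tag from 98 to 112. Without tags that also occur in another gene the shares were 0.00938% for DMSO and 0.0110% for SC1. Several of these genes overlap annotated 5S copies, as given below, so this choice also removes tags of 5S copies that are annotated a second time. In bulk RNA such shares cannot tell the number of cells from the amount of RNA per cell. Antisense matches came to 3 DMSO reads and 10 SC1 reads, and tags read backwards matched 0 times in each list, which allows up to 1.59e-05% and 0.000285%. Intervals and limits cover counting error only, since several reads can come from 1 molecule through PCR.

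The 5.8S genes gave far fewer reads than the 5S genes. 5.8S rRNA pairs with 28S rRNA and comes from the long ribosomal precursor. The 2 5.8S genes held 31 DMSO reads and 290 SC1 reads, of which 204 SC1 reads belonged to Gm24601 and 86 to n-R5-8s1. CT010467.1 held 30 and 7 reads. The 5.8S inside the full ribosomal repeat was not analysed here, so these are lower limits.

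Other transcripts of RNA polymerase III gave a point of reference within each list. The 8 genes listed (Rn7sk, Rn7s1, Rn7s2, Rny1, Rny3, Rpph1, Rmrp and Vaultrc5) together took 0.284% of the DMSO reads and 0.220% of the SC1 reads. The Y RNA Rny1, part of Ro ribonucleoprotein particles, had 26976 DMSO reads, close to the 29783 of 5S rRNA. The 7SL gene Rn7s1, whose RNA is the core of the signal recognition particle, had 18648. Among SC1 reads 5S rRNA had 13356, Rn7s1 2053 and Rny1 20, so among these genes 5S rRNA had the most reads of 15 to 17 nt.

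Most DMSO fragments started in 3 short zones, which were set after the starts had been seen. Starts at 71 to 74 took 42.6% of the reads of the common sequence (12488 reads, interval 42.0 to 43.2). Starts at 33 to 36 took 21.9% (6422 reads) and starts at 95 to 98 took 17.8% (5211 reads), and all other positions together held 17.7%. Single start positions at or above 5% were 71 (17.8%), 72 (15.8%), 98 (13.6%), 34 (12.6%) and 74 (5.14%).

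The DMSO fragments also ended at few positions. Position 93 was the last base of 26.9% of the reads (7874), position 53 of 8.99% (2634), position 116 of 6.54% (1918), position 119 of 6.17% (1809) and position 97 of 5.90% (1730). These are the end positions at or above 5%. Fragments that began at 71, 72, 73 or 74 shared the end at 93, with 3341, 2976, 718 and 708 reads, so their lengths were 23, 22, 21 and 20 nt. The reads ending at 93 were 64.1%, 64.3%, 62.9% and 47.0% of the reads with these starts. From 71 and 72, 675 and 660 reads ended at 97 instead.

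The SC1 list held the zones at 33 to 36 and 95 to 98 but hardly the zone at 71 to 74. Starts at 95 to 98 took 77.4% of its reads of the common sequence (10308 reads, interval 76.7 to 78.1), and starts at 33 to 36 took 16.7% (2218 reads). Starts at 71 to 74, which led the DMSO list, took 1.06% (141 reads). Single start positions at or above 5% were 98 (74.3%) and 34 (13.1%), and end positions were 112 (74.8%), 50 (9.47%) and 49 (5.25%). One tag of 15 nt, from 98 to 112, held 71.9% of all SC1 5S reads (9605 of 13356).

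**Figure D1:**
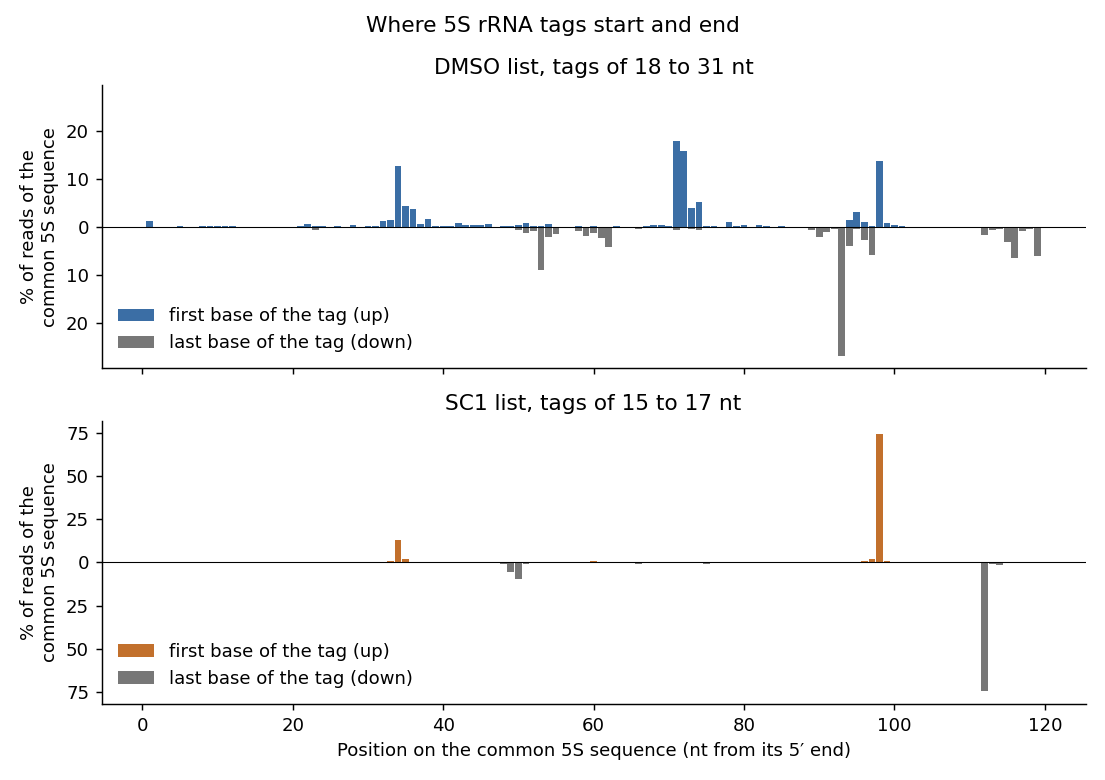
Reads of the common 5S sequence by the position of the first base of the tag (bars up) and of its last base (grey bars down), in percent of the list's reads of that sequence, for the DMSO list (upper panel) and the SC1 list (lower panel, other scale). DMSO starts gather at 33 to 36, 71 to 74 and 95 to 98, and 74.3% of the SC1 reads start at 98.

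Coverage followed these zones. Base 86 was covered in DMSO by 45.9% of the reads, base 50 by 28.8%, base 105 by 20.6%, base 66 by 4.06% and base 10 by 1.73%. SC1 reads covered base 105 at 78.2%, base 50 at 11.3%, base 85 at 1.33% and base 10 at 0.0976%.

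**Figure D2:**
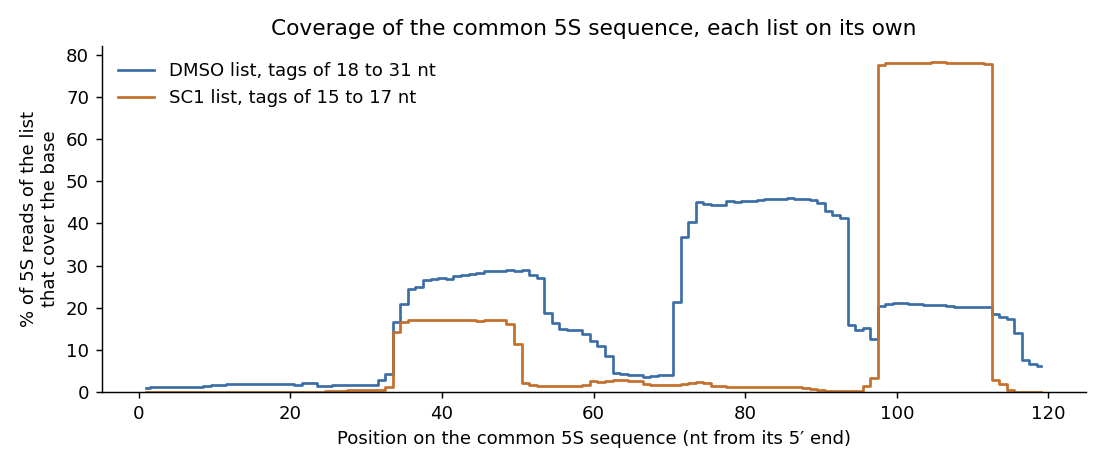
Percent of a list's reads of the common 5S sequence that cover each base, by position in nt from the 5′ end, with 1 line per list. The DMSO line has 3 plateaus, the highest at 45.9% near base 86, and the SC1 line rises to 78.2% at base 105.

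By all exact matches, the 5′ end of 5S rRNA gave fewer DMSO reads than the 3′ end, but this order turned without tags that also occur in another gene. In the DMSO list 1.17% of the 5S reads (347 reads, diverged copies included) started within 2 nt of position 1, and 7.46% (2221) ended within 2 nt of position 119. At 18 nt alone the shares were 0.303% and 0.346%, and without tags that also occur in another gene they were 19.6% and 0.0565%. By construction, the latter choice removes every common tag that ends there. A transcript of Tmem38b contains positions 50 to 119 without a change. That choice therefore cannot order the ends. Of the reads starting at position 1 of the common sequence, 175 of 329 were 23 nt long. Of the SC1 reads 2 started within 2 nt of position 1 (0.015%) and 7 ended within 2 nt of position 119 (0.0524%). Reads centred past the middle base made up 67.7% of the DMSO and 81.2% of the SC1 5S reads, but 32.9% of the SC1 reads without the tag from 98 to 112. Over distinct tags the shares were 43.97% and 52.3%. The side that held more thus turned over distinct tags in DMSO and without the tag from 98 to 112 in SC1. Without tags that also occur in another gene the shares were 5.99% and 19.0%. That choice removes most tags past the middle base by construction, so it cannot order the sides.

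The DMSO share at the 3′ end depends on where the gene is taken to end. RefSeq lists 31 of the 32 genes with the common sequence at 121 nt, 2 bases longer than GENCODE, and the sequence of these bases was not used here. Tags that reached base 119 and ran on with T had 2950 DMSO reads, more than the 1809 that stopped at 119, and those that ran on with TT had 921. Those with TTT had 49 reads, and those with A, C or G as the added base had 232, 26 and 11. The leading tags of this kind are shown because their ends fall at or next to the RefSeq end, with the added bases in capitals.
DMSO, positions 98 to 119 and 1 added base, 1948 reads: ggaataccgggtgctgtaggctT
DMSO, positions 98 to 119 and 2 added bases, 622 reads: ggaataccgggtgctgtaggctTT
When up to 3 added A or T were removed, 19.2% of the DMSO 5S reads (6635) ended within 2 nt of position 119, against 7.46% by exact match. SC1 tags of this kind had 6 reads with T and 2 with TT.

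**Figure D3:**
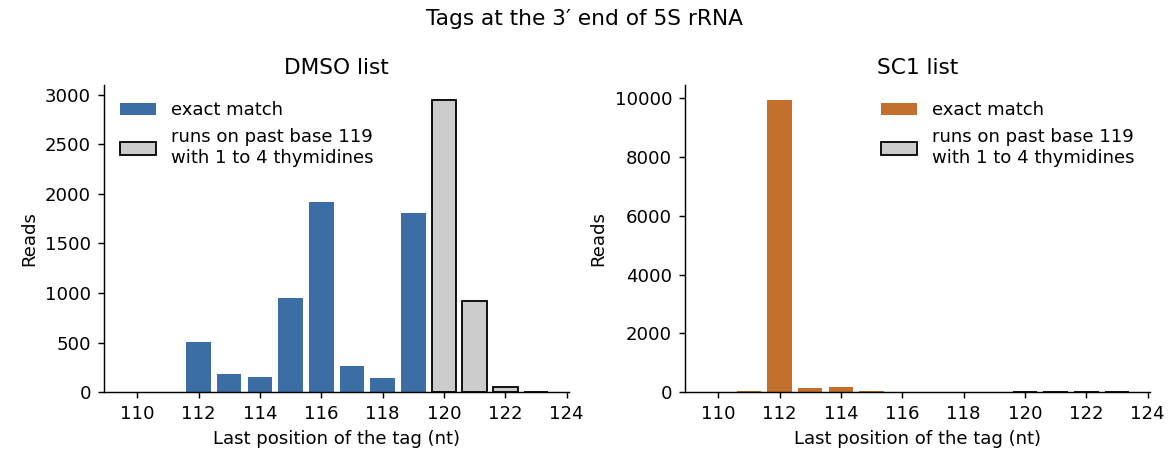
Reads by the last position of the tag, from 110 to 123, in the DMSO list (left) and the SC1 list (right, other scale), as exact matches (coloured bars) or running on past base 119 with 1 to 4 T (light bars). In the DMSO list the highest bar is 1 base past 119 with 2950 reads, and in the SC1 list nearly all reads stop at 112.

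Fragments with the same start came in a few lengths. From position 98 the DMSO list had 866 reads of 18 nt, 1721 of 19 nt, 151 of 20 nt, 103 of 21 nt and 1154 of 22 nt. The SC1 list had 9605 reads of 15 nt, 108 of 16 nt and 182 of 17 nt from that start. From position 34 the DMSO list had 1707 reads of 20 nt and 409 of 29 nt as its 2 highest lengths, ending at 53 and 62. The SC1 list had 1051 reads of 17 nt, 591 of 16 nt and 109 of 15 nt from that start. So in SC1 the fragment from 98 was mostly of the shortest length matched, and the fragment from 34 mostly of the longest.

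The lengths of 5S fragments differed from those of all reads in each list. DMSO 5S reads were most frequent at 22 nt (18.0%, against 15.6% of all DMSO reads), but 24 nt held 4.68% against 12.9%. Lengths of 18 to 20 nt held 7.76%, 12.5% and 14.1% of the 5S reads, against 3.81%, 7.12% and 10.4% of all reads. SC1 tags of 15 nt held 74.8% of the 5S reads and 19.3% of all reads. By distinct tags 20 and 21 nt tied as the most frequent lengths in DMSO with 95 tags each, and 17 nt led in SC1, and without the tag from 98 to 112 it was also 17 nt by reads in SC1. The 5S share of the reads at each length was 4.92% at 15 nt, 0.470% at 16 nt and 0.352% at 17 nt in the SC1 list, then 0.322% at 18 nt, 0.277% at 19 nt and 0.214% at 20 nt in the DMSO list. Libraries and lengths change together between 17 and 18 nt.

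**Figure D4:**
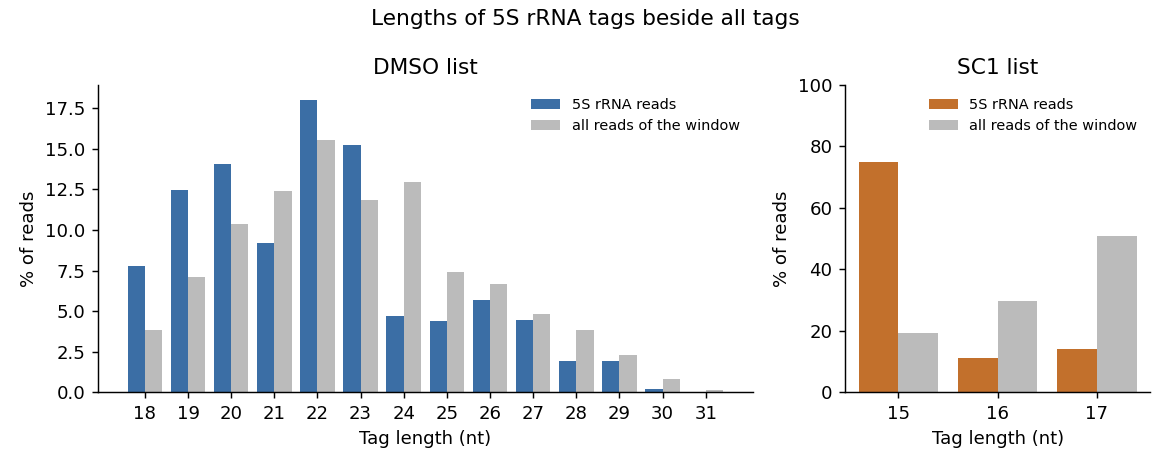
Percent of reads by tag length in nt, for 5S rRNA reads (coloured bars) and all matched reads (grey bars), in the DMSO list (left) and the SC1 list (right, other scale). The DMSO 5S reads are highest at 22 nt with 18.0%, and the SC1 5S reads at 15 nt with 74.8%.

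The short SC1 tags were almost all the beginnings of DMSO tags. Of the SC1 5S reads, 99.8% (interval 99.7 to 99.9) belonged to a tag that is the start of a DMSO 5S tag, and 90.1% of the distinct tags did. The SC1 tag from 98 to 112 began 5 DMSO tags with 3995 reads, and the tag from 34 to 50 began 15 DMSO tags with 3695 reads. Since both lists are mostly fragments of 1 sequence with few start sites, such nesting says nothing of SC1.

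The first bases of 5S tags differed from those of all tags. Of the DMSO 5S reads 35.9% began with G and 10.1% with A, against 18.0% and 35.3% of all matched reads. Of the SC1 5S reads 78.6% began with G, mostly the tag from 98 to 112, against 19.9% of all reads. G makes up 32.8% of the common sequence and A 18.5%.

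The genes themselves differ widely in how close they are to the common sequence. An array of 51 genes, all on the minus strand, lies on chromosome 8 at chr8:123538786-123623745, with starts 1665 to 1727 bp apart. It holds the 32 genes with the common sequence and 19 that differ from it. The other 300 genes are scattered over the 21 chromosomes that carry 5S genes, with a median of 69.7% of the common bases. In all, 303 different sequences were found among the 351 genes.

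Nearly all fragments were of the common sequence. For DMSO 98.4% of the 5S reads (29306, in 650 tags) lay within it, and 477 reads in 171 tags matched only diverged copies. For SC1 the share was 99.7% (13320 reads in 145 tags), with 36 reads in 27 tags outside it. A read within the common sequence fits all 32 genes and often diverged copies as well, so it cannot be given to 1 gene. In the DMSO list 145 of the 351 genes matched at least 1 read and 206 matched none, and in the SC1 list 176 and 175. Tags outside the common sequence matched 79 diverged copies in the DMSO list and 48 in the SC1 list. Shorter tags can fit more copies, and the same count over all annotated genes was not made.

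Reads that belong to a single diverged copy were few. For DMSO 80 reads came from tags found in 1 copy alone, spread over 23 copies, and no such tag had 10 reads or more. The copies with the most were n-R5s136 of the array (chr8:123599861-123599979) with 16 reads, n-R5s210 (chr1:37005439-37005557) with 13, n-R5s156 (chr7:99497718-99497822) with 11 and n-R5s211 (chr1:46374197-46374315) with 5. Next came n-R5s151, n-R5s41 and n-R5s96 with 4 reads each. In n-R5s136 10 of the 16 reads differed from the common sequence more than 3 bases from a tag end, but only 1 of 13 did in n-R5s210 and 3 of 11 in n-R5s156. For SC1 13 such reads fell on 8 copies, led by n-R5s88 with 4 reads, n-R5s136 and Gm25447 with 2 each, and 5 copies with 1.

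Array copies that differ from the common sequence could be followed as groups. For each group, reads that carried its bases were set against reads that carried the common bases at the same place. Only changes more than 3 bases from a tag end were used, and gene copies were counted against the 32 common genes. Substitutions are written with the base of the common sequence first, then the position, then the base of the copy. The leading tag of C44T had 14 DMSO reads, that of T62A had 8, and that of the deletion described below had 144.

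Most of these groups had a smaller share of DMSO reads than of genes. The 7 copies with G89T, A90T and G93C (n-R5s101 and others) were 17.9% of these genes and had 9 reads beside 12273 of the common bases, 0.0733% (interval 0.0335 to 0.139). The 4 copies with T62A (n-R5s106, n-R5s118, n-R5s130 and Gm24312) were 11.1% of the genes and had 20 reads beside 1118 of the common base, 1.76% (interval 1.08 to 2.70). The 3 copies with C44T alone (n-R5s112, n-R5s120 and n-R5s125) were 8.57% of the genes and had 45 reads beside 7758, 0.577% (interval 0.421 to 0.771). The copy n-R5s136 with T33C was 3.03% of the genes and had 10 reads beside 360, 2.70% (interval 1.30 to 4.91), an interval that includes its share of genes. With every tag that tells it apart, also near its ends, n-R5s136 had 16 reads beside 1247. That was 1.27% (interval 0.726 to 2.05), below its share of genes, so its place against that share depends on this choice.

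The copies with a deletion stood out from these. Gm24089 (chr8:123601572-123601680) and Gm23647 (chr8:123623637-123623745), both of 109 nt, lack 10 bases between positions 27 and 38. Reads across the joined ends came to 212 beside 878 reads of the common sequence over the missing part, 19.5% (interval 17.1 to 21.9), while these copies were 5.88% of the genes. With every tag that tells them apart, also near its ends, the share was 3.58% (234 reads beside 6299), so the order against the share of genes turns with this choice. The leading DMSO tag of the deletion, with 144 reads, starts at position 22. A share taken at that start therefore favours the deletion and does not stand for these copies as a whole. Among DMSO reads that started there, 193 were of the deletion, this tag included, and 146 of the common sequence, 56.9% (interval 51.5 to 62.3). In the SC1 list these were 2 and 5 reads. The reference is of another strain than J1, and whether J1 has the same number of each copy was not tested.

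**Figure D5:**
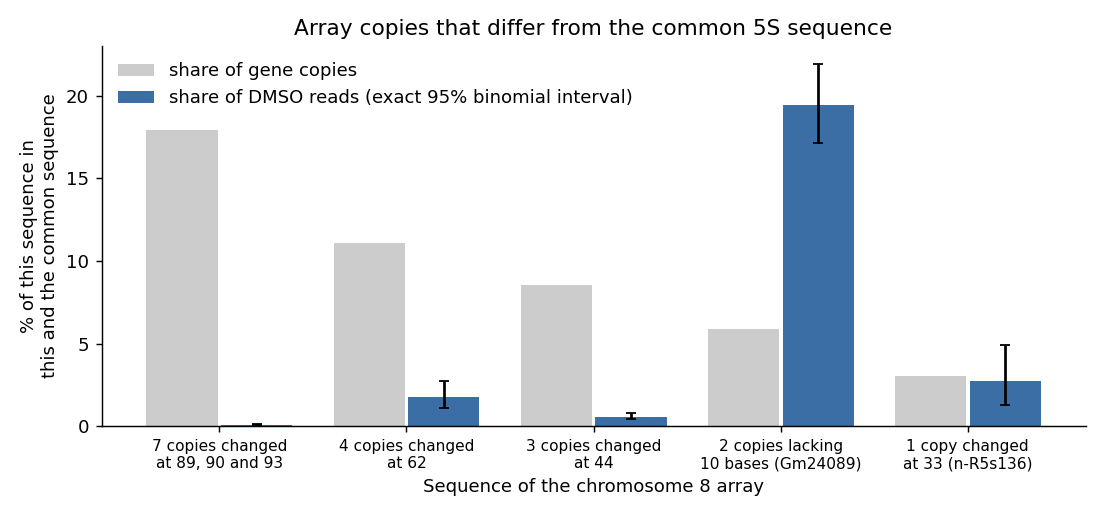
Share of 5 groups of array copies among gene copies (grey) and DMSO reads (blue, with exact 95% binomial intervals), each against the common sequence, using differences more than 3 bases from a tag end. In 3 of the groups the read share is below the gene share, and in n-R5s136 its interval includes the gene share. The 2 copies lacking 10 bases reach 19.5% of reads. When tags that differ near an end are counted as well, n-R5s136 has 1.27% and the 2 copies lacking 10 bases have 3.58%, each below its gene share.

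Changes counted in no annotated copy give a rough background of such reads. This count missed some diverged copies: G61A was counted in none, yet a tag with it matched n-R5s156. Reads of diverged copies can therefore be part of this background. Over 279 substitutions counted in no copy, with at least 100 DMSO reads over the position, the median share of reads was 0%. The highest was 3.73%, and 68 of them had a read. This highest share was that of G66T, with 38 reads beside 982 of the common base (interval 2.65 to 5.08), of which 27 were 1 tag of 28 nt. Over 12 substitutions found in array copies the median was 0.0179% and 7 had a read. The share of T62A and of C44T therefore exceeds that of most substitutions counted in no copy, but not that of G66T.

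Most 5S tags also occur in transcripts of other genes that contain a stretch of the 5S sequence. Of the 29306 DMSO reads of the common sequence, 28003 also matched such a transcript, as did 28013 of all 29783 DMSO 5S reads and 13240 of all 13356 SC1 5S reads. A transcript of Tmem38b, which encodes an ion channel of the endoplasmic reticulum, contains positions 50 to 119 without a change and matched 20069 of the 29783 DMSO 5S reads and 10953 of the 13356 SC1 reads. The zone starting at 33 to 36 lies partly outside that stretch, and 9237 DMSO reads of the common sequence do not match Tmem38b. The 5S copy n-R5s185 (chr4:53860652-53860770) lies within the Tmem38b gene on the same strand and matched the same 20069 and 10953 reads. The 5S stretch of Tmem38b is thus itself an annotated 5S copy. An exact match cannot tell these sources apart.

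Of these transcripts, 4 are annotated as miRNA genes, and each lies on a 5S copy of the same strand. Gm47285 (chr12:85718503-85718563) lies within n-R5s64, Gm47301 (chr4:149817764-149817823) within n-R5s193, Gm47281 (chrY:991657-991716) within n-R5s1, and Gm47276 (chr16:41217777-41217836) within Gm26381. Gm47301 matched 9506 DMSO reads, all of them also within the common 5S sequence. Gm47285 matched 8708, of which 6 were not within it, and Gm47276 and Gm47281 matched 3219 each, of which 1 was not. In the SC1 list the same genes matched 2786, 2710, 564 and 564 reads, of which 0, 0, 1 and 1 were not within the common sequence. Nearly all reads of these miRNA genes were therefore also reads of the common 5S sequence.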

How the data were processed

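Small RNAs of 1 DMSO and 1 SC1 library of J1 cells were analysed. The authors deposited, for each library, distinct tags with raw read counts and the tag length in nt, which equalled the sequence length on every line (the DMSO list ends in a line with its total, which no count here includes). The submitters' processing notes name mm9. Adapter, trimming, length filter, aligner: not given in the sources used here. Other lengths than 18 to 31 nt (DMSO) and 15 to 17 nt (SC1) were set aside. Total reads were 18870345 and 1275599, each of a length class and not of the whole library.

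Tags were matched exactly, in sense, to GENCODE M21 transcripts (GRCm38; no mm9 coordinates are used). Genes were assigned to 5S or 5.8S by local alignment score. Positions of diverged copies came from a global alignment with the common sequence, the most frequent one, whose full letters are not reported here. Shares carry exact (Clopper-Pearson) 95% intervals, and a count of 0 allows 3 counts. Matching was tested on simulated tags. Named tags and copies follow this rule: the 10 leading tags, of which the report prints the first few, the 5 diverged copies with most reads of their own, and starts and ends with 5% or more. G61A, G66T, the deletion, Tmem38b, n-R5s185 and the miRNA genes were named after their values were seen. The members and lists were chosen with earlier results of these data known. Alternatives covered read minimums, distinct tags, single lengths, other genes, 1 substitution, 3′ A or T and end windows. Python 3.11.15, numpy 2.4.6, scipy 1.17.1, Biopython 1.88 and matplotlib 3.10.9 were used.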

Additional observations from a re-analysis of the deposited data

Results flagged for a closer look

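SC1 tags of 12 to 14 nt, shorter than those matched in the report, also lay within the common 5S sequence, and this was picked out because it is a signal in data not used above. They made up 1.85% of the SC1 reads of these lengths (3753 of 202697 reads, interval 1.79 to 1.91), against 0 reads when the sequence was read backwards, which allows up to 0.00148%. The leading tag, of 14 nt from 98 to 111, had 1459 reads.

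Reads that ran past base 119 are also outside the exact matches. There were 2950 DMSO reads with 1 added T and 921 with TT, and 6 SC1 reads with 1 added T. These were picked out because each exceeds the 3 counts that a count of 0 allows.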

How the results depend on the processing

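No paired analysis was possible because DMSO and SC1 had 1 library each. The middle-base share and, except for the leading length, the alternatives without the most abundant tag were chosen after seeing the data. Unless construction shows it (fewer tags, shorter sums), the cause was not tested.

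The 5S share was 0.158% in DMSO and 1.27% in SC1. It was 0.162% and 1.32% with tags of at least 2 reads, 0.160% (0.1605) and 1.36% (1.365) with at least 10, and 0.0906% and 0.259% over distinct tags. It was 0.322% at 18 nt alone (DMSO) and 0.352% at 17 nt alone (SC1), 0.00938% and 0.0110% without tags found in another gene, and 0.140% and 0.359% without the most abundant tag. In DMSO it was 0.161% with up to 1 substitution and 0.183% with 3′ A or T removed.

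The DMSO 5′ end share (1.17%) was 2.68% over distinct tags, 0.303% at 18 nt, 19.6% without tags found in another gene, 1.03% with A or T removed and 1.31% without the top tag. The DMSO 3′ end share (7.46%) was 3.41%, 0.346%, 0.0565%, 19.2% and 8.40% in the same order, 8.04% (8.045) with 1 substitution, 6.08% exactly at the end and 17.6% within 5 nt. The order of the ends in DMSO thus turned without tags found in another gene. That choice removes every common tag within positions 50 to 119 by construction, so it cannot order the ends or the sides of the middle base. The SC1 5′ share (0.0150%) was 0% at 2 or 10 reads and more, 1.16% over distinct tags, 1.72% without other genes and 0.0749% within 5 nt. The SC1 3′ share (0.0524%) was 0% at 10 reads or more and without other genes, 2.33% over distinct tags, 0.159% at 17 nt, 1.95% within 5 nt and 0.187% without the top tag.

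The common share (98.4% and 99.7%) was 98.8% and 99.9% (99.89) with at least 2 reads, 99.2% and 100.0% with 10, 79.2% and 84.3% over distinct tags, 99.5% and 99.4% at the single lengths, and 73.6% and 69.8% without other genes. It was 99.1% and 99.96% with 1 substitution, 99.6% and 99.84% for any sequence of 2 or more genes, and 98.2% and 99.0% without the top tag. The leading length was 20 nt, tied with 21 nt, (DMSO) and 17 nt (SC1) over distinct tags, and 17 nt in SC1 without the top tag. Copies with reads of their own (23 and 8) fell to 9 and 2 with at least 2 reads, 0 and 0 with 10, and 7 and 1 without tags 1 substitution from the common sequence. The nesting of SC1 tags (99.8%) was 99.88% anywhere inside a DMSO tag, 90.1% over distinct tags and 98.9% with DMSO tags of at least 10 reads. The middle-base share (67.7% and 81.2%) was 69.1% and 81.9% with at least 10 reads, 43.97% and 52.3% over distinct tags, 74.6% at 18 nt and 27.7% at 17 nt, 5.99% and 19.0% without other genes, and 63.6% and 32.9% without the top tag. It was 71.9% in DMSO with A or T removed. For the results other than the middle-base share, 21 further values stayed within their counting interval or, for lengths and counts, near the value reported. Without replicates, depth sets only the counting error: 36 SC1 reads of diverged copies and 2 at the 5′ end allow no order among them.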

Other observations

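Among the blood and muscle miRNA hairpins listed as markers of other cell types, the SC1 list had 0 reads of 15 to 17 nt, which allows up to 0.000285% for each list of genes, and the DMSO list had 19 and 3031 reads. The liver marker Mir122 had 55 DMSO reads and 1 SC1 read. DMSO tags of 32 to 44 nt within the common 5S sequence had 3 reads of 7479, at the limit that a count of 0 allows.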
